A study of Rattus norvegicus with 35 samples.

Results

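The 5 arms of the miR-29 family that were examined, miR-29a-3p, miR-29b-3p, miR-29c-3p, miR-29a-5p and miR-29c-5p, were taken by name from the 763 rat microRNAs (miRNAs) of a liver small RNA count table. All 5 passed the filter on low counts, as did 328 miRNAs in all. Livers came from male Sprague-Dawley rats, 6 weeks old, given ketoconazole by mouth every day at 10 (low), 30 (middle) or 100 (high) mg/kg, or the vehicle alone, 0.5% methylcellulose, as control. Treatment lasted 3, 7 or 14 days, with liver collection 24 h after dosing ended. Ketoconazole is an azole antifungal drug that inhibits sterol synthesis and carries a known hazard of liver injury. Each of the 12 groups had 3 samples except control day 14, which had 2, giving 35 libraries. Whether the samples of a group are different animals is not stated in the labels, so p-values reflect the spread among samples, which may be technical in part.

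Total counts ran from 2665943 to 9665416 per library, with a median of 3758063. On the first principal component of all tested miRNAs, which held 46.2% of the variance, 14 libraries (the controls and the low dose on days 3 and 14) lay between -14.49 and -4.32. The other 21 (low dose day 7, middle dose and high dose) lay between 4.24 and 6.47. No batch is given in the labels, and a batch that followed this split cannot be told apart from treatment. The liver label was borne out by the hepatocyte miRNA list, of which 6 of 6 members were detected at a summed 226912 to 341268 CPM (a miRNA's reads scaled to the size of its library). In whole liver, fewer cells of a type and less RNA per cell cannot be told apart.

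MicroRNAs pair with messenger RNAs mainly through their seed, bases 2 to 8, and lower the output of those messages. The 3p arms of the miR-29 family are known to repress collagens, elastin, fibrillin and other matrix proteins, and DNA methyltransferases. In liver they are made by hepatocytes and by stellate cells, the main source of scar matrix, and their loss from stellate cells is a known feature of liver fibrosis. The 5p arms are the opposite strands of the same hairpin precursors and are mostly discarded during maturation.

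The 5 mature sequences are shown first because the 3p arms share a seed and differ only downstream of it, while each 5p arm has a seed of its own. They are RefSeq sequences of rat build GRCr8, 5' to 3', with the seed in capitals, and all 5 members were matched by name among its 693 mature miRNAs.
miR-29a-3p: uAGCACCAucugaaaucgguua
miR-29c-3p: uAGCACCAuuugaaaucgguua
miR-29b-3p: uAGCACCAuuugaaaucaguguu
miR-29a-5p: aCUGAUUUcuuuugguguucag
miR-29c-5p: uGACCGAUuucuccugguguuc

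The seed AGCACCA was found in 3 of the 693 mature miRNAs, the 3 listed above. The seeds of miR-29a-5p and miR-29c-5p were each found in 1. Counted from 1 at the 5' end, miR-29a-3p differs from miR-29c-3p by the single change C10U. The step from miR-29c-3p to miR-29b-3p takes the changes G18A, U21G and A22U, and miR-29b-3p is 23 bases long against 22 for the others. Its first 17 bases are those of miR-29c-3p. How reads that fit several miRNAs were assigned is not given in the sources used here, so a read that ended before base 18 could belong to either, and the counts of this pair are uncertain to that extent. The 3' end of miR-29b-3p holds AGUGUU, searched on the mature strand only. This hexamer is known to direct human miR-29b to the nucleus. It begins at position 18 here and occurs in 8 of the 693 mature miRNAs (1.15%), among them miR-29b-3p as the single family member. The 5p arms of miR-29a and miR-29c, aligned with an offset of 2 bases, match at 17 of 20 overlapping positions.

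The family comes from 4 hairpins on 2 chromosomes of GRCr8. Mir29a and Mir29b1 lie on the minus strand of chromosome 4, and Mir29c and Mir29b2 on the plus strand of chromosome 13. The hairpins of the a and c members are shown because the count of both of their arms allows the balance between strands to be measured. Capitals mark the 2 mature arms, the 5p arm first.
Mir29a: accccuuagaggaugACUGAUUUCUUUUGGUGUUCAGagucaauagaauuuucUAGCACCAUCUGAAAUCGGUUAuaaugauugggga
Mir29c: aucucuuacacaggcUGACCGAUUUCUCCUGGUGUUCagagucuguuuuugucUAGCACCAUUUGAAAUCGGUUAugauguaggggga

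The mature miR-29b-3p can come from Mir29b1 or Mir29b2, and its count does not say which. The opposite arms of these hairpins were nearly absent. miR-29b-5p had 0 to 7 counts per library, 106 in all, and miR-29b-1-5p had 1 count in 1 library. Neither was tested.

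The 3p arms were far apart in level although their seed is the same. miR-29a-3p averaged 2806 CPM over the 35 libraries and ranked 33 of 328 miRNAs. The mean of miR-29c-3p was 497 CPM (rank 72) and that of miR-29b-3p 39.7 CPM (rank 177). Of the 5p arms, miR-29c-5p averaged 19.3 CPM (rank 217) and miR-29a-5p 15.3 CPM (rank 225). Counts per library ran from 4936 to 33686 for miR-29a-3p but from 30 to 138 for miR-29a-5p and from 35 to 172 for miR-29c-5p, so the 5p arms were measured with less precision. With the 12 group means of a member in order, most neighbours differed by less than the larger of their SDs. This held for 10 of 11 neighbouring pairs of miR-29a-3p, miR-29c-3p and miR-29c-5p and for 9 of 11 of miR-29b-3p and miR-29a-5p. Putting means in order brings neighbours close, so these counts do not show whether the groups differ.

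**Figure D1:**
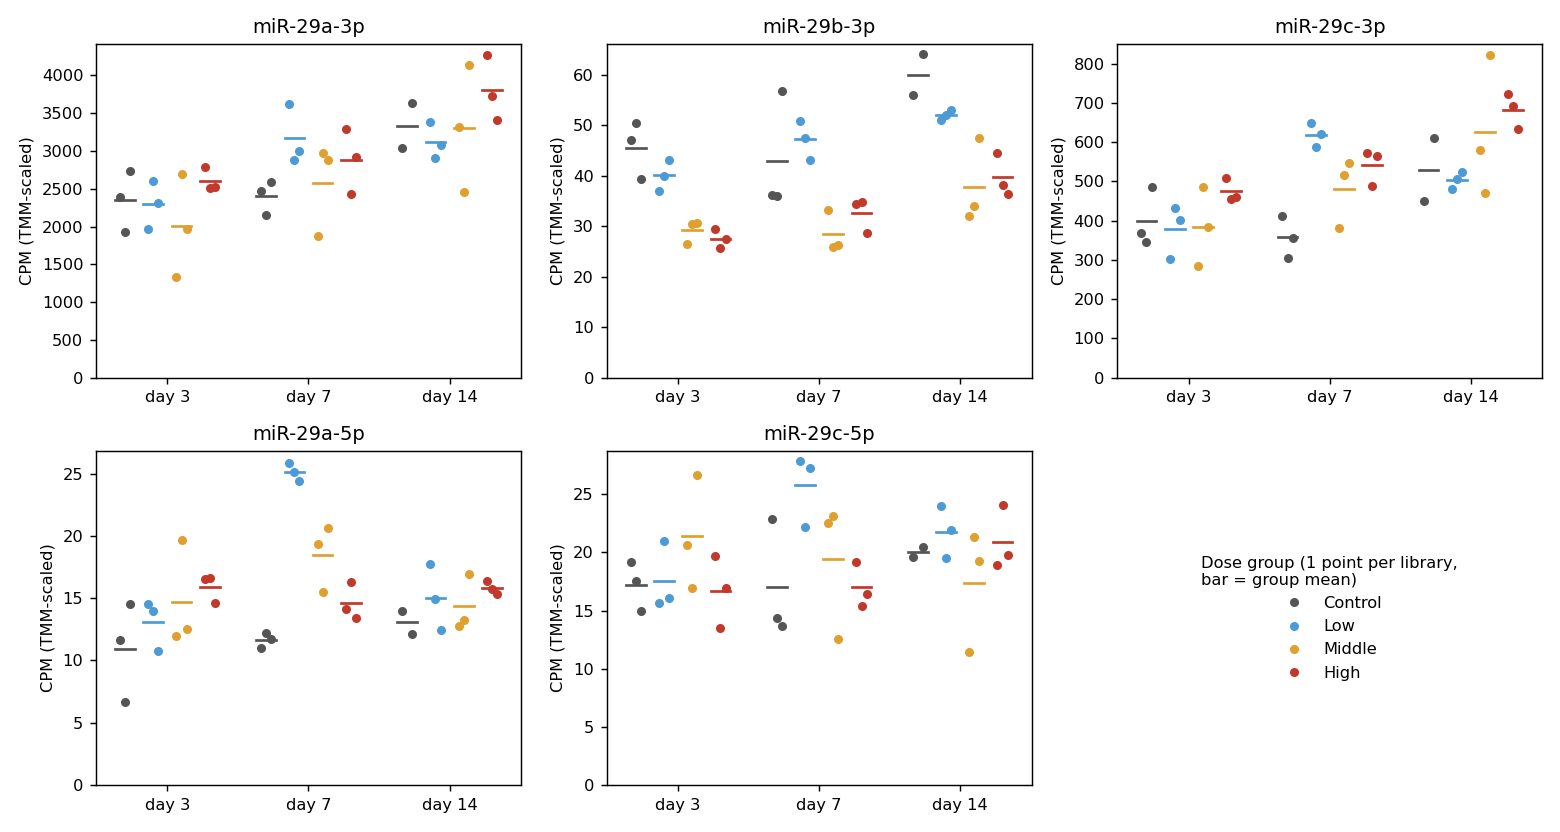
Level of each miR-29 arm (vertical axis, CPM scaled by TMM) in each library, by day (horizontal axis) and dose (colour); each point is 1 library and each bar a group mean. miR-29b-3p sits between 25.7 and 44.6 CPM at the high dose and between 36.0 and 64.2 CPM in controls, while miR-29a-3p overlaps between these doses on each day.

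To determine how the drug changed each arm, each dose was compared with the control of its day and as an average over the 3 days. Tests were the quasi-likelihood test of edgeR, adjusted by Benjamini-Hochberg over all 328 miRNAs, with a threshold of 0.05, and differences are log2 fold changes ± SE. miR-29b-3p, the rarest 3p arm, fell at the middle and high doses. miR-29c-3p rose at the high dose and at the low dose on day 7. miR-29a-5p rose at each dose averaged over days, and miR-29a-3p, the most abundant arm, did not pass the test in any of these 12 comparisons.

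miR-29b-3p in controls was 47.1, 50.4 and 39.3 CPM on day 3, 36.1, 36.0 and 56.8 on day 7, and 56.0 and 64.2 on day 14. The middle dose libraries held 26.6, 30.4 and 30.8 CPM on day 3, 33.2, 26.0 and 26.4 on day 7, and 32.1, 34.1 and 47.5 on day 14. The high dose libraries held 29.5, 25.7 and 27.5 CPM on day 3, 34.5, 34.7 and 28.6 on day 7, and 44.6, 38.1 and 36.4 on day 14. On each day, every middle and high dose library lay below every control library of that day. Such separation in either direction was common, with 45.1, 50.9 and 44.5% of tested miRNAs at the middle dose on days 3, 7 and 14 and 47.9, 56.1 and 59.1% at the high dose. Over all days the ranges overlapped, since 8 of 9 middle dose and 6 of 9 high dose libraries were below the lowest control. Over all days 22.3% of tested miRNAs did not overlap between middle dose and control and 25.9% between high dose and control, with no family member among them.

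Averaged over days, miR-29b-3p fell by 0.63 ± 0.10 on the log2 scale at the middle dose (1.55-fold, adjusted p = 5.11e-06) and by 0.57 ± 0.10 at the high dose (1.49-fold, adjusted p = 1.76e-05). Of all tested miRNAs, 61.9% passed at the middle dose (29.9% as lower) and 62.8% at the high dose (31.4% as lower) in these averages, so passing was not unusual. Both averages passed under each alternative setting that was run and with each library left out. By day, the middle dose gave -0.64 ± 0.18 on day 3 (adjusted p = 0.00449, 38.1% of miRNAs called), -0.59 ± 0.18 on day 7 (adjusted p = 0.0066, 50.9% called) and -0.66 ± 0.19 on day 14 (adjusted p = 0.00841, 28.4% called). The high dose gave -0.73 ± 0.17 on day 3 (adjusted p = 0.00114, 35.1% called), -0.39 ± 0.17 on day 7, which did not pass (adjusted p = 0.0569, 51.8% called), and -0.60 ± 0.19 on day 14 (adjusted p = 0.0152, 35.4% called). Single libraries decided some of these daily calls and values. The high dose value on day 7 did not pass in any of the 6 fits that left out 1 library. Without control day 7 replicate 3 the middle dose value on day 7 was -0.33 (adjusted p = 0.131) and the high dose value -0.10 (adjusted p = 0.697). Without high dose day 7 replicate 3 the latter was -0.26 (adjusted p = 0.276). Without control day 14 replicate 2, the day 14 values were -0.63 at the middle dose (adjusted p = 0.0651) and -0.57 at the high dose (adjusted p = 0.0909). Without high dose day 14 replicate 3 the high dose value was -0.52 (adjusted p = 0.0658).

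At the low dose miR-29b-3p was 37.1, 40.1 and 43.2 CPM on day 3, 50.9, 47.6 and 43.2 on day 7, and 51.0, 52.1 and 53.1 on day 14. These overlapped the controls on days 3 and 7 and lay below both control libraries on day 14, where 20.4% of miRNAs did not overlap in either direction. None of the tests passed. The differences were -0.19 ± 0.17, 0.14 ± 0.17 and -0.21 ± 0.19 on days 3, 7 and 14 and -0.09 ± 0.10 on average (adjusted p = 0.592).

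**Figure D2:**
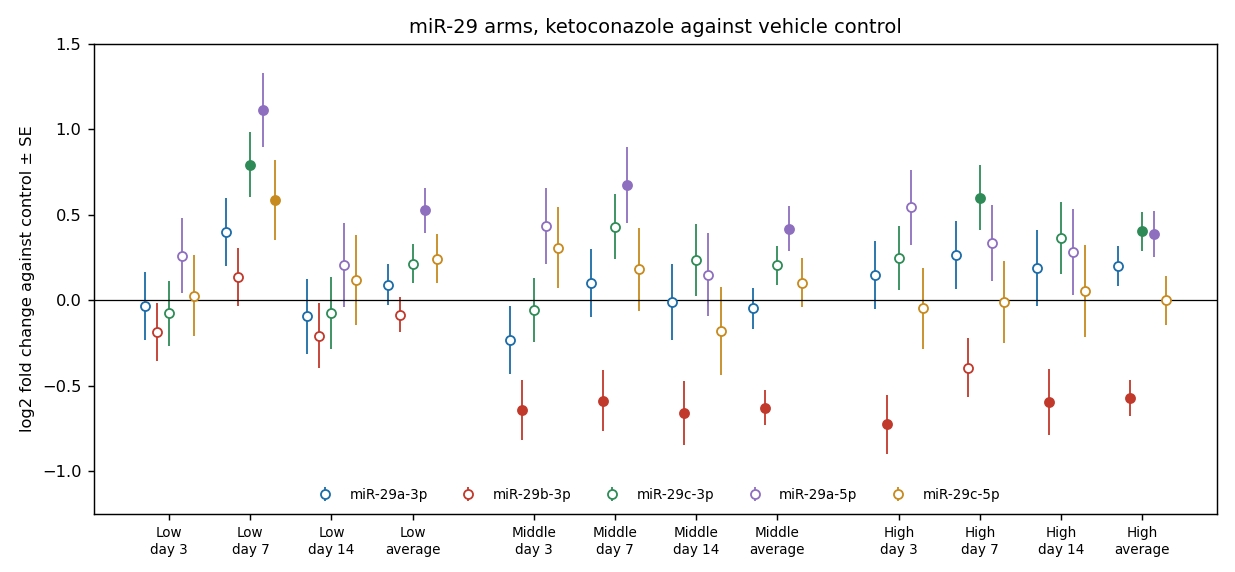
Log2 fold change against the control of the same day (vertical axis) for each miR-29 arm, dose and day, with bars of 1 SE; filled points passed an adjusted p of 0.05. miR-29b-3p lies below 0 at the middle and high doses on each day, from -0.39 to -0.73, and miR-29a-5p and miR-29c-3p have their highest values at the low dose on day 7, at 1.11 and 0.79.

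miR-29c-3p, which shares its first 17 bases with miR-29b-3p, had the opposite sign at the high dose. In controls it was 368.8, 345.8 and 485.4 CPM on day 3, 412.4, 303.9 and 355.0 on day 7, and 449.8 and 610.2 on day 14. At the high dose it was 508.0, 454.7 and 460.9 CPM on day 3, 571.2, 488.3 and 565.2 on day 7, and 722.0, 691.9 and 633.6 on day 14. High dose libraries lay above all controls of their day on days 7 and 14 and overlapped them on day 3. On days 7 and 14, 56.1 and 59.1% of tested miRNAs did not overlap in either direction. miR-29c-3p rose by 0.40 ± 0.11 on average at the high dose (adjusted p = 0.00285, 31.4% of miRNAs called as higher) and by 0.60 ± 0.19 on day 7 (adjusted p = 0.00874). The values were 0.25 ± 0.19 on day 3 (adjusted p = 0.334) and 0.36 ± 0.21 on day 14 (adjusted p = 0.193), neither past the threshold. The average no longer passed without day 7, at 0.31 (adjusted p = 0.0743), or without control day 14 replicate 1, at 0.28 (adjusted p = 0.0609), where the day 14 value was 0.0048.

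At the middle dose miR-29c-3p was 284.0, 484.7 and 384.6 CPM on day 3, 381.0, 516.0 and 547.3 on day 7, and 579.7, 471.4 and 823.0 on day 14. It overlapped the controls on each day, and its average difference was 0.20 ± 0.11 (adjusted p = 0.125). The day 7 value of 0.43 ± 0.19 (adjusted p = 0.0590) passed without control day 7 replicate 1, at 0.55, or without middle dose day 7 replicate 1, at 0.53.

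miR-29a-3p differs from miR-29c-3p by 1 base in 22. In controls it ran from 1922 to 3633 CPM with a median of 2527. The low dose ran from 1970 to 3620 CPM (median 2907), the middle dose from 1339 to 4142 (median 2700) and the high dose from 2435 to 4270 (median 2917). These ranges overlapped across all doses. The averages for the low, middle and high doses were 0.09, -0.05 and 0.20 ± 0.12, none past the threshold (adjusted p = 0.145 at the high dose). The spread was widest at the middle dose, where day 3 held 1339, 2700 and 1971 CPM. Without the highest of these, middle dose day 3 replicate 2, miR-29a-3p passed as lower on that day, at -0.53 (adjusted p = 0.0382), against -0.23 with all libraries. Without the lowest, replicate 1, the value was -0.03 (adjusted p = 0.947), and without control day 3 replicates 2 or 3 it was -0.39 and -0.13, none past the threshold.

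The low dose on day 7 stood apart from the low dose on days 3 and 14. In the latter no member passed and 0% of miRNAs were called by edgeR (25 and 11 of 328 had an unadjusted p under 0.05, and DESeq2 called 0 on each day). On day 7, 45.1% of miRNAs were called (26.5% as higher) and 3 of the 5 members rose. miR-29a-5p was 25.8, 25.1 and 24.4 CPM against 11.0, 12.2 and 11.7 in controls, with no overlap, and rose by 1.11 ± 0.22 (2.16-fold, adjusted p = 8.47e-05). miR-29c-3p was 648.1, 586.7 and 621.2 CPM against 412.4, 303.9 and 355.0, again without overlap, and rose by 0.79 ± 0.19 (1.73-fold, adjusted p = 0.000886). Separation of the 3 low dose from the 3 control libraries of day 7 held for 50.3% of miRNAs.

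miR-29c-5p was 27.9, 22.2 and 27.3 CPM at the low dose on day 7 and 22.9, 14.4 and 13.7 CPM in the controls of that day, with ranges that overlapped. Its rise of 0.59 ± 0.24 (adjusted p = 0.0425) did not pass under 6 of the alternative settings. It was also lost without control day 7 replicate 2 (0.34) or 3 (0.33), or low dose day 7 replicate 1 (0.52) or 3 (0.54). miR-29a-3p was 3620, 2883 and 2999 CPM against 2466, 2147 and 2587, without overlap, and its difference of 0.40 ± 0.20 did not pass (adjusted p = 0.103).

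The low dose on day 7 was also set against treated groups, which does not use the controls. With the low dose of days 3 and 14, a change in drug effect cannot be told apart from other differences between days. Against the low dose on days 3 and 14, miR-29a-5p was higher by 0.84 ± 0.18 (adjusted p = 0.000321) and miR-29c-3p by 0.50 ± 0.16 (adjusted p = 0.0165), where 30.2% of miRNAs were called. miR-29b-3p was at 0.05 there (adjusted p = 0.818). The miR-29c-3p value fell short of the threshold with library size scaling (0.41), the stricter filter (0.38), no low-count filter (0.40), DESeq2's size factors (0.35) and DESeq2 itself (0.35), at adjusted p values from 0.0547 to 0.136. It also fell short without low dose day 7 replicate 1 (0.47) or low dose day 14 replicates 1, 2 or 3 (0.34, 0.35 and 0.35).

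Between doses on day 7, 24.1% of miRNAs were called for high against low and 10.1% for middle against low. miR-29a-5p was lower at the high than at the low dose by -0.78 ± 0.21 (adjusted p = 0.00677). It did not pass with no low-count filter (-0.54, adjusted p = 0.149) or without high dose day 7 replicate 3 (-0.55). miR-29b-3p was lower than at the low dose by -0.72 ± 0.18 at the middle dose (adjusted p = 0.00914) and by -0.53 ± 0.17 at the high dose (adjusted p = 0.0251). The middle dose value was lost with no low-count filter (-0.61, adjusted p = 0.0582), with the libraries of that day alone (-0.71, adjusted p = 0.0587) and without middle dose day 7 replicate 2 (-0.55) or 3 (-0.53). The high dose value was lost under 5 settings: DESeq2's size factors (-0.37), no low-count filter (-0.28), the stricter filter (-0.43), the libraries of that day alone (-0.43) and DESeq2 (-0.36). It was also lost without high dose day 7 replicate 3 (-0.27) or low dose day 7 replicates 1 (-0.47) or 2 (-0.52). Averaged over days, no member passed between the high and middle doses, where 17.4% of miRNAs were called. The largest difference was that of miR-29a-3p, 0.25 ± 0.11 (adjusted p = 0.122), which passed with library size scaling (0.32) and without middle dose day 3 replicate 2 (0.34).

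Because the 3p arms share a seed, their sum and their shares of it were followed next. These are descriptions of the libraries and carry no test. The summed level averaged 3080 CPM over control libraries, 3408 over low dose, 3157 over middle dose and 3697 over high dose libraries. miR-29a-3p made up 84.9% ± 1.2 of the sum in controls (SD, n = 8), and its means at the 3 doses were 84.0, 83.1 and 83.7%. The share of miR-29b-3p was 1.59% ± 0.33 in controls (SD, n = 8), 1.38% ± 0.16 at the low dose, 1.08% ± 0.31 at the middle dose and 0.907% ± 0.104 at the high dose (n = 9 each). miR-29c-3p held 13.5% ± 1.2 in controls and 14.6, 15.9 and 15.4% at the 3 doses. The pool with this seed was mostly miR-29a-3p at every dose, and the drop in miR-29b-3p took place in a minor part of it.

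The ratio of miR-29b-3p to miR-29c-3p does not depend on how libraries are scaled. Its log2 value ran from -3.63 to -2.64 in the 8 controls and from -3.85 to -3.03 at the low dose. At the middle dose it ran from -4.37 to -3.42 and at the high dose from -4.30 to -3.81. All 9 high dose libraries were below all 8 controls, as single members were not. Of all 53628 pairs of tested miRNAs, 24.2% had ratios that did not overlap between high dose and control, and 19.8% between middle dose and control. The mean difference from control at the high dose was -0.98 on each of days 3, 7 and 14, a 1.97-fold lower ratio on average. The middle dose gave -0.56, -0.99 and -0.90, and at the low dose -0.10, -0.64 and -0.15.

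Against miR-29a-3p, miR-29b-3p was lower by a mean log2 difference of -0.77 at the high dose (1.70-fold) and -0.55 at the middle dose, and by -0.16 at the low dose. The ratio of miR-29c-3p to miR-29a-3p moved less. Its mean difference from control was 0.27 for middle dose and 0.21 for high dose libraries, and it was 0.41 at the low dose on day 7 against -0.05 and 0.04 on days 3 and 14.

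**Figure D3:**
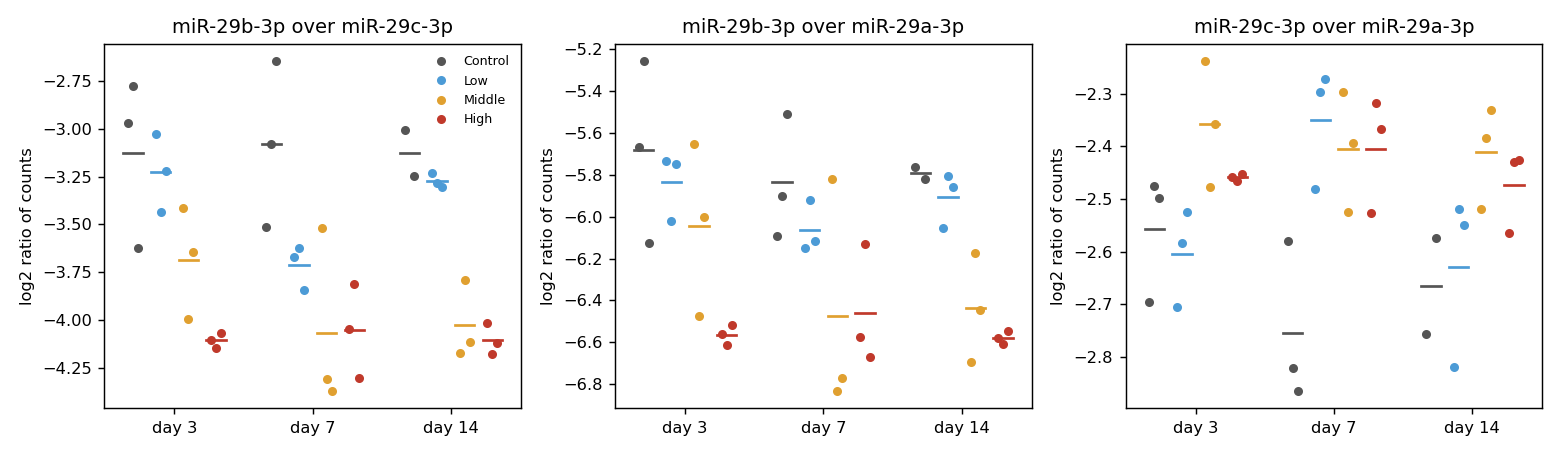
Log2 ratios between the 3p arms (vertical axes: miR-29b-3p over miR-29c-3p, miR-29b-3p over miR-29a-3p and miR-29c-3p over miR-29a-3p) in each library by day and dose; points are libraries and bars group means. For miR-29b-3p over miR-29c-3p the 9 high dose libraries lie between -4.30 and -3.81, below the 8 controls between -3.63 and -2.64.

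The 5p arm of miR-29a, the strand mostly discarded, was the member that rose at the most doses. In controls it was 11.6, 6.7 and 14.5 CPM on day 3, 11.0, 12.2 and 11.7 on day 7, and 14.0 and 12.1 on day 14. Middle dose libraries held 11.9, 19.7 and 12.5 CPM on day 3, 19.3, 15.5 and 20.6 on day 7, and 12.8, 13.3 and 17.0 on day 14. High dose libraries held 16.6, 16.7 and 14.6 CPM on day 3, 14.2, 16.3 and 13.4 on day 7, and 16.4, 15.8 and 15.4 on day 14. High dose libraries lay above all controls of their own day on each of the 3 days, and 7 of 9 lay above the highest control of any day. On day 3 the margin was slight, with replicate 3 at 14.57 CPM (62 counts) against 14.53 CPM (61 counts) in control replicate 3. That high dose library is among the 7, and the share of all miRNAs with such a count was not computed. Separation by day in either direction held for 47.9, 56.1 and 59.1% of tested miRNAs at this dose on days 3, 7 and 14. The middle dose was apart from its controls on day 7 only, where 50.9% of tested miRNAs did not overlap.

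Averaged over days, miR-29a-5p rose by 0.53 ± 0.13 at the low dose (edgeR, adjusted p = 0.0032). The rise was 0.42 ± 0.13 at the middle dose (adjusted p = 0.00712) and 0.39 ± 0.13 at the high dose (adjusted p = 0.0123). In these 3 averages 54, 105 and 103 of 328 miRNAs were called as higher (22.6, 61.9 and 62.8% in either direction). The low dose average rested on day 7. On days 3 and 14 the low dose libraries ran from 10.7 to 17.7 CPM and the average of those days was 0.23 (adjusted p = 0.931). At the middle dose the average without day 7 was 0.29 (adjusted p = 0.141), and without control day 3 replicate 2 it was 0.27 and still passed (adjusted p = 0.0475). Scaling by library size alone gave 0.27 at the middle dose (adjusted p = 0.0912) and 0.31 at the high dose (adjusted p = 0.0573). By day, the middle dose passed on day 7 at 0.67 ± 0.22 (edgeR, adjusted p = 0.0122, 50.9% of miRNAs called). The high dose did not pass on any single day, with 0.54 ± 0.22 on day 3 (adjusted p = 0.0518), 0.33 on day 7 and 0.28 on day 14. On day 3 the middle dose value was 0.43 ± 0.22 (adjusted p = 0.120). Both day 3 values passed without control day 3 replicate 3, at 0.67 for the middle and 0.77 for the high dose. They were 0.15 and 0.28 without control day 3 replicate 2, and the middle dose value was 0.14 without middle dose day 3 replicate 2, none of them past the threshold.

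The other 5p arm, miR-29c-5p, had no difference past the threshold at the middle or high dose on any day. It ran from 13.7 to 22.9 CPM in controls, from 11.5 to 26.7 at the middle dose and from 13.5 to 24.0 at the high dose. The average differences were 0.24, 0.10 and -0.00 at the low, middle and high dose, none past the threshold. The middle dose value changed sign with library size scaling, to -0.05.

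The balance of the arms of each hairpin was then tested as the log2 ratio of 3p to 5p counts, with 0.5 added to each. This used limma on the 96 hairpins with both arms past the filter. Over all libraries the mean log2 ratio was 7.52 for miR-29a and 4.66 for miR-29c, against a median of -1.75 over hairpins, and 19 hairpins were more unequal than miR-29a. The 5p share of the miR-29a hairpin averaged 0.451% in controls, 0.616% at the low dose, 0.646% at the middle dose and 0.514% at the high dose. For miR-29c the share averaged 4.21% in controls, 4.20% in low dose libraries, 4.15% in middle dose and 3.14% in high dose libraries.

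The miR-29a ratio moved toward the 5p arm at the low and middle doses. It was lower by -0.44 ± 0.14 at the low dose (limma, adjusted p = 0.0189, 19.8% of hairpins called in either direction) and by -0.49 ± 0.14 at the middle dose (adjusted p = 0.00341, 64.6% called), averaged over days. At the high dose the value was -0.20 ± 0.14 (limma, adjusted p = 0.203, 59.4% called). The low dose passed on day 7, at -0.70 ± 0.23 (adjusted p = 0.0124, 51% called). The middle dose passed on day 3, at -0.73 ± 0.23 (adjusted p = 0.0133, 35.4% called), and on day 7, at -0.58 ± 0.23 (adjusted p = 0.0338, 53.1% called). The low dose average was lost on days 3 and 14 alone (-0.31, adjusted p = 0.694) and when control day 3 replicate 2 (-0.38) or day 14 replicate 2 (-0.37) was left out. The middle dose value was lost on day 3 without control day 3 replicate 2 (-0.55) or middle dose day 3 replicate 1 (-0.60). On day 7 it was lost without control day 7 replicate 1 (-0.51) or 3 (-0.53), or middle dose day 7 replicate 1 (-0.33) or 3 (-0.59).

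On the other days with calls, 28.1% of hairpins passed at the middle dose on day 14 and at the high dose on day 3, 49% at the high dose on day 7 and 34.4% on day 14, without miR-29a. The miR-29c ratio did not pass in any of the 12 comparisons with control. Its highest average was 0.41 ± 0.18 at the high dose (limma, adjusted p = 0.0604). It passed there with the stricter low-count filter (0.41, adjusted p = 0.0421) and when control day 3 replicate 3 (0.49) or day 7 replicate 3 (0.45) was left out.

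**Figure D4:**
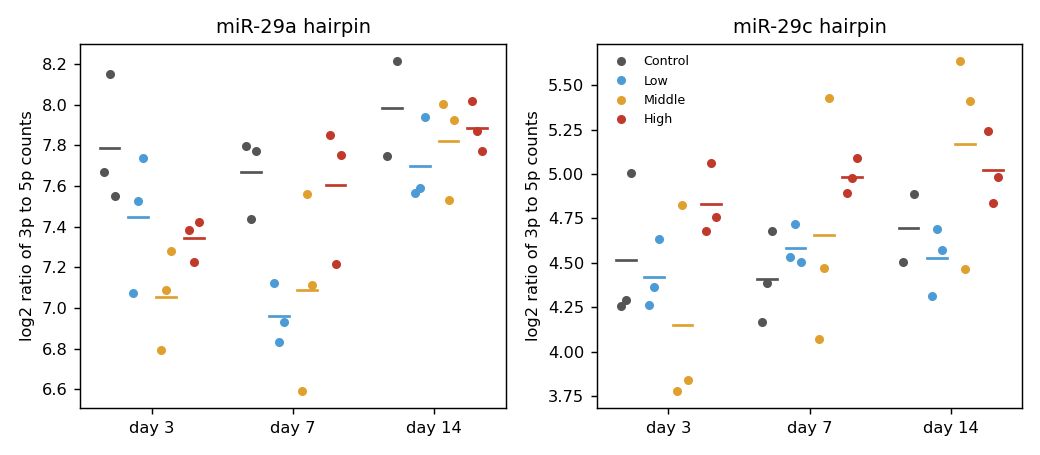
Log2 ratio of 3p to 5p counts (vertical axis) of the miR-29a and miR-29c hairpins in each library by day (horizontal axis) and dose; points are libraries and bars group means. The 3 low dose libraries of day 7 lie between 6.83 and 7.12 for miR-29a, below the 3 controls of that day between 7.44 and 7.80.

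Other miRNAs known for a part in liver fibrosis were counted from 2 lists chosen for this comparison. Of 11 miRNAs described as promoting fibrosis, 3 rose, 5 fell and 3 did not pass at the high dose on average, with a median log2 change of -0.13 against -0.04 over all 328 miRNAs. Of all 328, 31.4% passed as higher and 31.4% as lower there, so counts of this size were common. miR-222-3p and miR-221-3p, a pair that rises in activated stellate cells, were higher by 2.60 ± 0.18 and 1.56 ± 0.18, while miR-214-3p, also made by stellate cells, fell by 0.92 ± 0.13. Of 12 miRNAs other than miR-29 described as restraining fibrosis, 3 rose, 4 fell and 5 did not pass, with a median of -0.01. miR-30a-5p rose by 0.45 ± 0.06, whereas miR-194-5p fell by 0.57 ± 0.07 and miR-122-5p, a hepatocyte miRNA, by 0.51 ± 0.09. The middle dose gave 4 up, 4 down and 3 not passing on the first list and 3, 6 and 3 on the second. Of all miRNAs, 32% passed as higher and 29.9% as lower at that dose. At the low dose on day 7 the counts were 3, 3 and 5, and 5, 4 and 3, where 45.1% of all miRNAs passed (26.5% as higher).

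Markers of liver cell types were read beside these values. As a background to their counts, 31.4% of all tested miRNAs passed as higher and 31.4% as lower at the high dose on average. Both endothelial markers, which are the opposite arms of the same hairpin, fell at the high dose, miR-126a-5p by 0.52 ± 0.06 and miR-126a-3p by 0.76 ± 0.09. Their summed level ran from 18909 to 22701 CPM against 28706 to 37855 in controls. At the middle dose the sum ran from 20376 to 25148 CPM and both fell as well, and at the low dose it ran from 24377 to 34819 CPM. miR-29b-3p also fell at the middle and high doses on average, as did 29.9 and 31.4% of all tested miRNAs. At the low dose on day 7 both endothelial markers also fell, where miR-29b-3p did not pass and 45.1% of all miRNAs were called. Of the 6 stellate and smooth muscle markers 2 rose, 2 fell and 2 did not pass at the high dose. Their summed level ran from 46087 to 60691 CPM there against 36588 to 49961 in controls. Most of this sum was miR-143-3p (mean 44348 CPM over all libraries), which was higher by 0.32 ± 0.07 at the high dose. Of the less abundant markers, miR-145-5p (mean 276 CPM) was higher by 2.03 ± 0.15 and miR-214-3p (mean 47.3 CPM) lower by 0.92 ± 0.13. The median log2 change of the list was -0.03 against -0.04 over all miRNAs. Of the 6 hepatocyte markers 2 rose and 4 fell, at summed levels of 239748 to 287535 CPM against 226912 to 309919. White blood cell markers gave 0 up, 3 down and 2 not passing, red blood cell markers 1, 1 and 2, and bile duct and other epithelial markers 1, 2 and 2. The part of these cell types in the miR-29 values was not tested.

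Likeness was described by Pearson's r of log2 CPM over the 35 libraries, which share depth and treatment groups and so give no test. Among the members, miR-29a-3p and miR-29c-3p, from different chromosomes, had an r of 0.90. miR-29b-3p, which has one hairpin on each of these chromosomes, had an r of 0.36 with miR-29a-3p and 0.16 with miR-29c-3p. Since miR-29a-3p and miR-29c-3p differ by 1 base in 22 and the aligner is not given, reads of one may have been counted as the other. The part of such reads in their r was not tested. Among 237 other miRNAs, those nearest to miR-29b-3p were miR-27a-3p (0.75), miR-195-5p (0.74) and miR-15a-5p (0.72). For miR-29c-3p they were miR-22-3p (0.76), miR-339-5p (0.71) and let-7d-3p (0.70), and for miR-29a-3p miR-362-3p (0.63), miR-450a-5p (0.51) and miR-22-3p (0.48). For miR-29a-5p they were miR-193a-3p (0.69), miR-145-5p (0.64) and miR-374-5p (0.64). The nearest to miR-29c-5p were miR-30e-3p (0.50), miR-26a-5p (0.50) and miR-30d-3p (0.49).

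In controls alone, no member passed between days. Day 14 against day 3 gave values from 0.22 to 0.50 in the 5 members. There edgeR called 0% of miRNAs, with 29 of 328 at an unadjusted p under 0.05, and DESeq2 called 0. Day 7 against day 3 had 1.52% of miRNAs called by edgeR, with 71 of 328 at an unadjusted p under 0.05. DESeq2 called 20 miRNAs there, and no member passed by either method. The effect of the high dose did not pass as different between days for any miRNA by edgeR or DESeq2, with 36 of 328 at an unadjusted p under 0.05 for day 7 minus day 3 and 24 for day 14 minus day 3. The effect of the low dose did not pass as different between day 14 and day 3 either, with 14 of 328 at an unadjusted p under 0.05 by edgeR and 0 called by DESeq2.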

How the data were processed

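Small RNA was sequenced from 35 rat liver samples. Per the labels' protocols, RNeasy Plus Universal Mini kits gave the RNA and TruSeq Small RNA kits the libraries. Values are the authors' deposited raw counts, 1 row per mature miRNA. The build was rn6, per the submitters' processing notes. The aligner, counting program, annotation release and handling of reads that fit several miRNAs were not given in the sources used here. Of 37 count columns, 2 pairs (middle dose day 14 replicates 2 and 3) were repeat runs and were summed. Of the 763 miRNAs, 151 were 0 throughout. Libraries of the same group differed by more than counting noise in all 34 pairs (chi-square per degree of freedom at least 34.8), so none was taken as a repeat of another in its group.

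Counts were filtered with filterByExpr (minimum count 10, minimum total 15) and scaled by TMM. The edgeR 4.0.16 fit (R 4.3.3) had 1 mean for each group, 23 residual degrees of freedom and the robust quasi-likelihood F-test. Benjamini-Hochberg adjustment ran within each of 22 comparisons. Arm ratios were fitted in limma 3.58.1. Ratios between members carry no test. Likeness used miRNAs with a mean of at least 10 CPM and a prior count of 2. As alternatives, scaling by library size or by DESeq2's size factors was tried, and no filter, at least 10 CPM in 3 libraries, DESeq2 1.42.0, the days compared alone, days 3 and 14 alone, a replicate block, another added count for arm ratios and each library left out. The steps were tested on data simulated for the high dose average. There edgeR recovered 80.9% of 94 changes of 1.5-fold and 97.0% of 99 changes of 2-fold, and called 3 of 126 unchanged miRNAs. For arm ratios, 89.7% of 58 changes of at least 1.5-fold were recovered, and 3 of 18 unchanged ratios were called. From the fibrosis, endothelial and stellate lists, up to 3 miRNAs with the smallest p at the high dose on average were named. The other cell type lists are given as counts, with summed levels for hepatocytes. The members and lists were chosen with earlier results of these data known. Reads carry no stated molecular identifiers. Sequences are RefSeq's (GRCr8), used for letters only, so no coordinates are given.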

Additional observations from a re-analysis of the deposited data

Results flagged for a closer look

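The effect of the low dose differed between day 7 and day 3 for 2 members, by edgeR's quasi-likelihood test of the difference itself with Benjamini-Hochberg adjustment. For miR-29c-3p the change was 0.87 ± 0.27 higher on the log2 scale on day 7 (adjusted p = 0.0121). For miR-29a-5p it was 0.85 ± 0.31 higher (adjusted p = 0.0344). In this comparison 32.3% of the 328 miRNAs passed. The miR-29c-3p value did not pass without control day 3 replicate 3 (0.66, adjusted p = 0.0634) or control day 7 replicate 2 (0.68, adjusted p = 0.0968). The miR-29a-5p value did not pass under 6 alternative settings, at 0.75 to 0.90, or in 9 of the 12 fits that left out 1 library. Over those 12 fits it ran from 0.55 (without control day 3 replicate 3) to 1.04.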

How the results depend on the processing

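Of 2517 alternative values for 144 results, 2436 kept their direction and side of the threshold, or had not passed in either case; 69 fell short, 12 newly passed and 0 reversed. In 168 of them a value that passed under neither setting changed sign. Scaling by library size moved the median of all miRNAs by up to -0.22 on the log2 scale (middle dose, day 14) and by -0.15 for the middle dose average. DESeq2's size factors moved it by 0.16 for high against low on day 7 and by -0.15 for low dose day 7 against days 3 and 14.

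On days 3 and 14 alone, averages that no longer passed were miR-29c-3p at the high dose (0.31), miR-29a-5p at the middle (0.29) and low dose (0.23) and the miR-29a arm ratio at the low dose (-0.31). With library size alone they were miR-29a-5p at the high (0.31) and middle dose (0.27). miR-29c-5p at the low dose on day 7 did not pass with size factors (0.49), library size (0.53), no filter (0.54), the stricter filter (0.51), the days compared alone (0.58) or DESeq2 (0.48). The miR-29c arm ratio at the high dose newly passed with the stricter filter (0.41). The cause was not tested.

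With each library left out, miR-29c-3p at the high dose ran from 0.28 to 0.49, miR-29c-5p at the low dose on day 7 from 0.33 to 0.82, the miR-29a arm ratio at the low dose from -0.52 to -0.37 and the miR-29c arm ratio at the high dose from 0.34 to 0.49.

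The replicate numbers did not pair the samples. Deviations of the 51 same-numbered pairs had a median correlation of -0.01, as did the 102 differently numbered pairs, and 14 and 28 of them were above 0.1. With the replicate block, 1 call of a member changed, that of the miR-29a-5p low dose effect on day 7 minus day 3 (0.86, adjusted p = 0.0563). The block could not be fitted for comparisons between days of one dose.

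The 5p arms rest on 30 to 172 counts per library, which limits what they can show, and control day 14 had 2 libraries.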

Other observations

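The 3 arms that share the seed AGCACCA were higher on day 14 than on day 3 of dosing when the 4 dose groups were averaged, controls included. This comparison was added after the data were examined. Length of dosing cannot be told apart in it from any difference in age at collection or in batch between the days. miR-29a-3p rose by 0.55 ± 0.10 on the log2 scale (1.47-fold, quasi-likelihood test of edgeR with adjustment by Benjamini-Hochberg, adjusted p = 0.000412), miR-29c-3p by 0.51 ± 0.10 (adjusted p = 0.000472) and miR-29b-3p by 0.42 ± 0.09 (adjusted p = 0.00107). Of all 328 miRNAs, 12.8% passed in either direction. The group means of miR-29a-3p on days 3 and 14 were 2351 and 3336 CPM in controls, 2294 and 3123 at the low dose, 2003 and 3308 at the middle dose and 2608 and 3801 at the high dose. Those of miR-29b-3p were 45.6 and 60.1 CPM in controls, 40.1 and 52.0 at the low dose, 29.2 and 37.9 at the middle dose and 27.6 and 39.7 at the high dose.

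The 5p arms had smaller differences that did not pass, 0.10 ± 0.11 for miR-29a-5p and 0.15 ± 0.12 for miR-29c-5p, and both changed sign with library size scaling, to -0.05 and -0.01. The 3p calls held under each scaling and filter that was run and with each library left out. Their lowest values were with library size scaling, at 0.40, 0.36 and 0.27 for miR-29a-3p, miR-29c-3p and miR-29b-3p. On day 7 against day 3, 6.4% of miRNAs passed and no member did.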
